A study of Tachycineta bicolor with 30 samples.

Results

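The stage difference common to 3 brain regions was examined in free-living adult female tree swallows (Tachycineta bicolor), a songbird whose females fight for nest cavities before they lay. The females of incubation (INC, n = 5) had completed their clutches and were within the incubation period. The females of territory establishment (TE, n = 4) were taken earlier in the season while they competed for nest boxes, with ovaries that had regrown but held only small white follicles. All birds were wild, untreated and trapped in their boxes in the morning, and the study removed a further TE female for degraded RNA in the HYPO and the HB, whose libraries of those regions are not analysed here. Each female gave a library of the VmT (ventromedial telencephalon, cut where nucleus taeniae lies in other songbirds), of the hypothalamus (HYPO, with the preoptic area) and of the hindbrain (HB). Calendar date runs with stage, so the effects of stage and of season cannot be told apart.

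For every transcript the difference INC minus TE was taken in each region on a log2 scale and averaged over the 3 regions with equal weight. A positive value is higher during incubation. The average was tested in 1 fit of the 6 groups in which the bird was a block, since the 3 libraries of a female are not independent. Of 19473 transcripts tested, 26 had an adjusted p of at most 0.05 in limma, which is 0.134% of all. These 26 are the transcripts described here. Of them 16 were higher during incubation (0.0822% of all) and 10 were higher during territory establishment (0.0514% of all). At an unadjusted p the same test gave 6.29% of all transcripts under 0.05 and 0.493% under 0.001. All 26 had the same sign in the VmT, the HYPO and the HB, as did 30.0% of all transcripts tested (15.3% higher during incubation and 14.7% higher during territory establishment). The 26 were called on the average of these same differences, which favours like sign. It describes the 26 and does not test them again. A bulk sample does not separate fewer cells of a type from less RNA per cell.

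The whole counts recovered from the deposited values summed to between 6001315 and 13710385 per library over the 27 libraries, with a median of 8308433. The paper reports more mapped read pairs per sample on average than any of these sums, so they are not the sequencing depth. The reason for the gap was not tested. Values were scaled for library size but not for the length of a transcript, and are called normalized counts. They compare 1 transcript between libraries and not different transcripts with each other. For 1 VmT library of stage TE the labels name 2 different females, 85691 and the TE female that the study removed, so the VmT value given below for 85691 may come from the removed female. Without this library 20 transcripts were called, 17 of them among the 26. Over transcripts, its deviations from its group mean correlated at 0.39 with those of the HYPO library of 85691. With the HB library of 85691 the correlation was 0.37. With the other TE females the mean correlations were -0.11 in the HYPO and -0.12 in the HB. Deviations from a group mean cancel within the group. A positive correlation with 1 female therefore by itself tends to make the mean with the others negative, so these means are no separate evidence. The HYPO and HB libraries of the removed female were not compared. The HB library of INC female 85889 had 82802 normalized counts of prolactin, a hormone of the pituitary, against at most 195 in every other library. Without that library 10 transcripts were called, all among the 26. The summed level of telencephalon markers was 7056 to 13026 in VmT libraries and at most 4718 elsewhere, that of hindbrain markers was 3193 to 5557 in HB libraries and at most 571 elsewhere, and that of hypothalamus markers was 2232 to 4808 in HYPO libraries, 1562 to 3446 in VmT libraries and at most 1064 in HB libraries. Of 24 measured markers of the thalamus and midbrain, all 24 had a positive averaged difference (0 called, median 0.46, against 0.01 over all transcripts). Their summed level in the VmT was 2723 to 4000 in INC females, against 903 to 2995 in TE females. Of 9 red blood cell markers 8 had a negative averaged difference (0 called, median -0.31). Of all 19473 transcripts tested 10066 had a positive and 9407 a negative averaged difference. The part of these markers in the results was not tested.

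The count depends on how the spread between birds is estimated. In the fit the correlation of the 3 libraries of a bird was set to 1 value for all transcripts, 0.20. The 26 transcripts had their own within-bird correlations between 0.07 and 0.92, with a median of 0.53 against 0.19 over all transcripts, and 20 of the 26 were above the value of the fit. For such a transcript the fit treats the 3 libraries of a female as more independent than they were. For a transcript below the value of the fit it does the reverse, which makes a call harder to reach. When each bird was reduced to its mean over the regions, so that 5 INC birds stood against 4 TE birds, the limma test found 0 transcripts, and 1031 (5.29% of all) had an unadjusted p below 0.05. All 26 were among these, with p between 3.8e-06 and 0.0046. The lowest adjusted p was 0.0745, for a fatty acid desaturase 1-like transcript. On the libraries with no block, edgeR called 94 and DESeq2 called 237.

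Single females also moved the count. It was 1 without TE female 85691, 6 without 85694, 10 without 85689 and 13 without 85674. It was 5 without INC female 85899, 14 without 85774, 18 without 85840 and 28 without 85757 or 85889. The fatty acid desaturase 1-like transcript kept its call without any 1 female, and each of the other 25 lost it without at least 1. All 750 values of the 26 under other settings kept their direction. These settings reuse the libraries that chose the 26, so this describes the 26 and does not test them again.

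The transcript with the lowest p was a fatty acid desaturase 1-like transcript (FADS1-like, OXPHG498164). Where called transcripts or list genes are named, FADS1 stands for this transcript. Long-chain polyunsaturated fatty acids are made in the endoplasmic reticulum from dietary precursors by alternating steps of desaturation and elongation. FADS2 carries out the entry step, elongases such as ELOVL2 and ELOVL5 lengthen the chain, and FADS1 then adds the double bond that yields arachidonic acid and eicosapentaenoic acid. Brain membranes are rich in such fatty acids, and arachidonic acid is the precursor of prostaglandins.

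FADS1-like was about 2.21-fold higher during incubation. In the VmT it had 632, 408, 407, 431 and 624 normalized counts in INC females, against 188, 261, 278 and 269 in TE females. In the HYPO the counts were 649, 478, 545, 592 and 614 in INC females, against 159, 250, 328 and 326 in TE females. In the HB they were 570, 465, 481, 635 and 616 in INC females, against 166, 284, 223 and 244 in TE females. Every INC library was above every TE library, within each region and across regions. Only 3 transcripts of all tested (0.0154%) had stages that did not overlap in any region with 1 direction, and these were FADS1-like, GCFC2 and TCAF2.

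The averaged log2 difference of FADS1-like was 1.14 (standard error 0.12, adjusted p = 3.5e-06). By region it was 0.99 in the VmT (adjusted p = 0.00167) and 1.28 in the HB (adjusted p = 7.9e-04), with the HYPO between them (adjusted p = 0.00501) and a standard error of 0.17 in each. It was the single transcript called in the HB. The 3 differences were not shown to differ (interaction adjusted p = 0.788). In an exact permutation test of the bird means, two-sided, p was 0.0159, the smallest that 5 birds against 4 can give. The same p was found for 19 of the 26, FADS1-like included. Bird means that do not overlap give this p, and 1.68% of all transcripts had them. FADS1-like was chosen with earlier results of these data known, so this p describes it and does not test it again. Over the bird-mean fit the averaged difference of FADS1-like had a standard error of 0.15 (adjusted p = 0.0745).

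**Figure D1:**
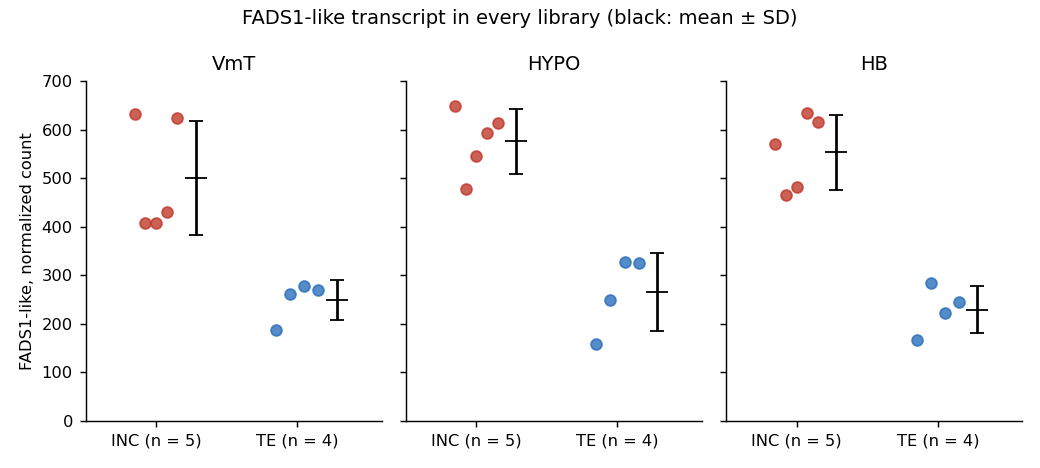
Normalized counts of the FADS1-like transcript (vertical axis, linear from 0) in each library of the VmT, HYPO and HB, with the 5 INC females left of the 4 TE females in each panel. Points are single libraries and black bars are mean ± SD: the lowest INC library is at 407 and the highest TE library at 328.

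The rest of the pathway held no called gene. Of 16 measured genes of polyunsaturated fatty acid synthesis, 1 was called higher during incubation (FADS1) and 0 were called higher during territory establishment, and the median averaged log2 difference was 0.02. Of the 16, 5 had like sign, FADS1 included, against 30.0% of all transcripts tested. The transcript named for the desaturase of the entry step, FADS2, had a mean of 3.10 normalized counts and an averaged difference of -0.08 (standard error 0.40). FADS6 had a mean of 431.6 and differed by 0.05 (standard error 0.09). Counts were not scaled for transcript length, so these means do not rank the genes by expression.

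Elongases gave small values. ELOVL2 differed by 0.14 (standard error 0.07, adjusted p = 0.80), ELOVL4 by 0.17 (standard error 0.12, adjusted p = 0.951), ELOVL5 by 0.02 (standard error 0.07, adjusted p = 0.997) and ELOVL6 by 0.05 (standard error 0.08, adjusted p = 0.997). Acyl-CoA desaturase (SCD), which makes monounsaturated fatty acids, differed by 0.17 with like sign (standard error 0.07, unadjusted p = 0.0255, adjusted p = 0.672). A second transcript named fatty acid desaturase 1 (OXPHG498196) had a mean of 23.4 normalized counts. It differed by 0.41 with a standard error of 0.27 (adjusted p = 0.928), and its libraries overlapped in every region. The 2 transcripts have nearly the same name, and reads shared between them could have been split by the counting.

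Neither synthesis of saturated fatty acids, nor their oxidation, nor that of cholesterol held a called gene. Of 18 measured genes of fatty acid synthesis and its regulators 0 were called (1 at an unadjusted p under 0.05, median 0.01). The regulator SREBF1 differed by 0.40 on average (adjusted p = 0.74), with 1.505 in the VmT, -0.40 in the HYPO and 0.10 in the HB, so its regions had opposite signs. Among 18 genes of fatty acid activation, transport and storage 0 were called (1 at an unadjusted p under 0.05), and LPCAT3, which places polyunsaturated chains into phospholipids, differed by 0.20 (adjusted p = 0.784). Fatty acid oxidation had 0 of 21 called and cholesterol synthesis 0 of 19, each with 1 at an unadjusted p under 0.05.

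**Figure D2:**
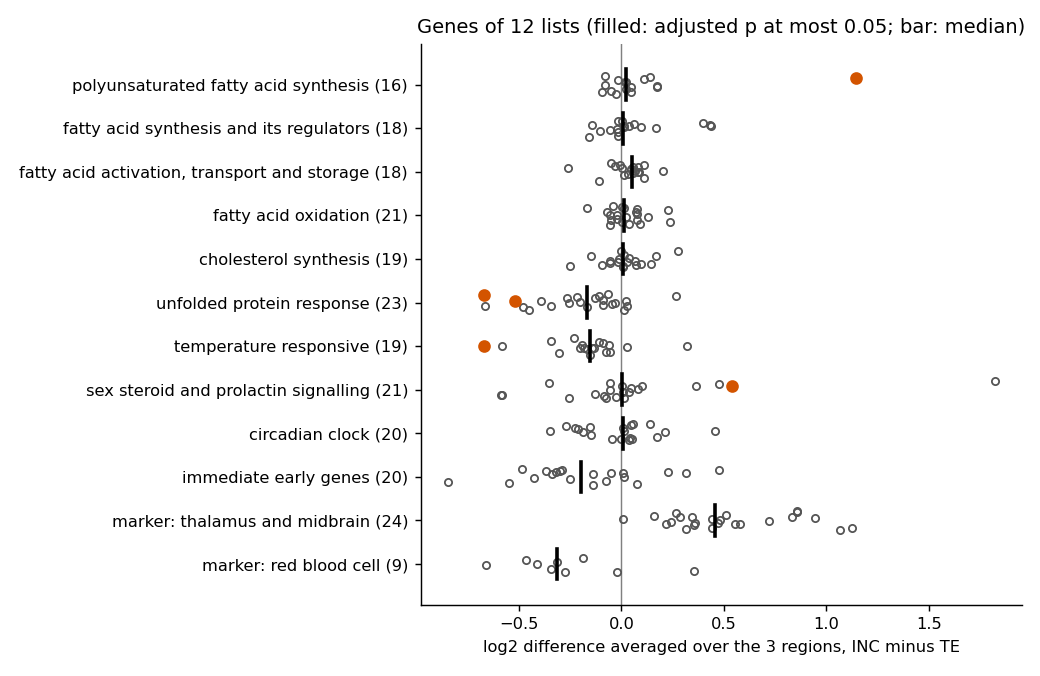
Log2 difference averaged over the 3 regions, INC minus TE (horizontal axis), for the measured genes of 12 lists, with the number of genes in brackets. Each circle is 1 gene, filled where its adjusted p is at most 0.05, and the vertical bar is the median of the list: FADS1 stands alone at 1.14 among 16 genes whose median is 0.02.

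Among the other transcripts called higher during incubation were those of 4 enzymes or enzyme-like proteins and of an exporter. ALDH1A1 (retinal dehydrogenase 1), which makes retinoic acid from retinal and oxidises other aldehydes, had 382, 230, 98.6, 63.5 and 287 normalized counts in the VmT of INC females, against 25.2, 39.0, 64.0 and 22.4 in TE females. In the HYPO it had 273, 460, 308, 271 and 177 in INC females, against 54.0, 130, 63.8 and 185 in TE females. The HB was lower and closer, with 37.2, 174, 55.1, 67.5 and 71.1 in INC females, against 29.1, 51.0, 38.0 and 63.0 in TE females. The stages overlapped in each region by 1 or a few libraries, but the bird means did not overlap. Averaged over the regions ALDH1A1 differed by 1.51 (standard error 0.32, adjusted p = 0.046), and its within-bird correlation was the lowest of the 26, at 0.07. Retinal dehydrogenase 2, a related enzyme, differed by -0.02 in its transcript with more counts (standard error 0.17).

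Hexokinase-3 (HK3), which phosphorylates glucose, was higher during incubation by 0.71 (standard error 0.15, adjusted p = 0.046). In the VmT it had 47.3, 47.0, 70.3, 51.0 and 76.7 normalized counts in INC females, against 23.3, 27.8, 25.1 and 29.2 in TE females, with no overlap there. Hexokinase-2 differed by -0.03 (standard error 0.15). VKORC1L1, which recycles vitamin K, was higher by 0.46 (standard error 0.09, adjusted p = 0.046), and its HYPO counts were 990 to 1418 in INC females, against 759 to 873 in TE females. Its stages overlapped in the VmT, the HB or both, and over the bird means. AAED1, a thioredoxin-like protein, was higher by 0.76 (standard error 0.16, adjusted p = 0.046). ABCC6, an exporter of the ABC family best known from liver, was higher by 0.68 (standard error 0.14, adjusted p = 0.046), and did not overlap in the HYPO or the HB. Each of these values is an average over regions that agree in sign and not always in size.

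**Figure D3:**
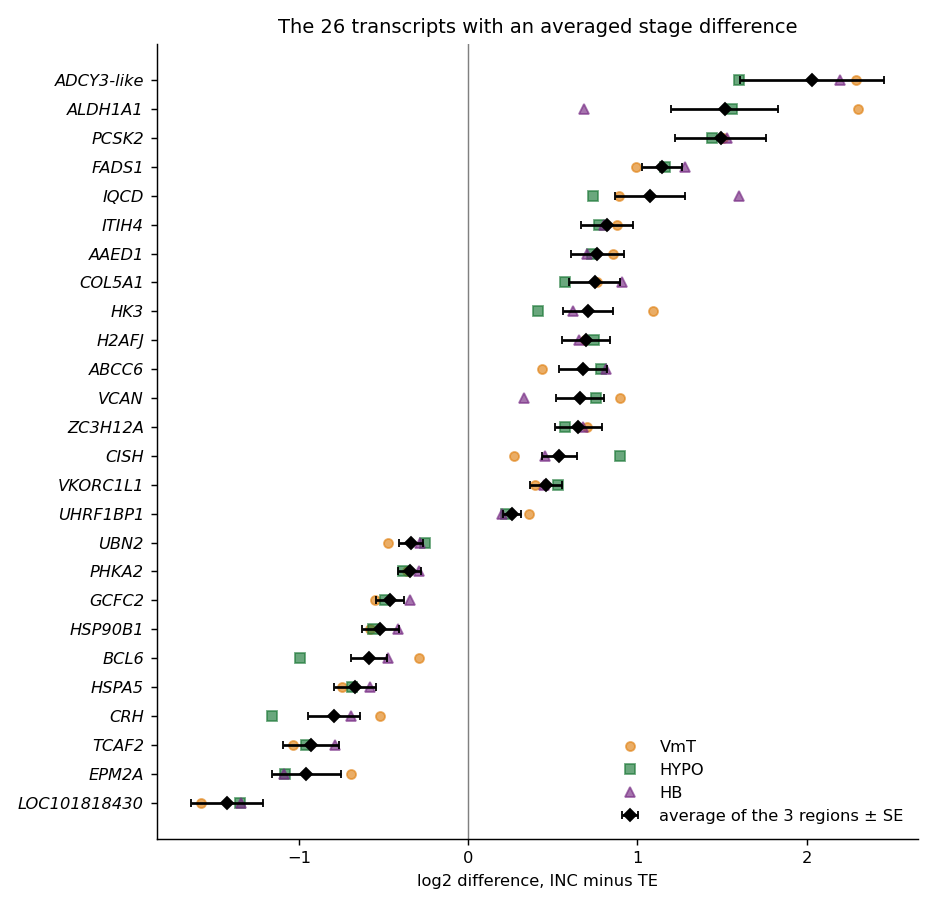
Log2 difference INC minus TE (horizontal axis) of the 26 transcripts called on the average of the 3 regions, sorted by size. Black diamonds are the averages with their standard errors, and circles, squares and triangles are the VmT, HYPO and HB: all 3 lie on 1 side of 0 in every row, from 2.03 for ADCY3-like to -1.42 for LOC101818430.

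Called transcripts of peptide processing and cell signalling were found in both directions. PCSK2 (neuroendocrine convertase 2) cuts neuropeptide and hormone precursors in secretory granules. In the VmT it had 3346, 895, 1630, 1246 and 2355 normalized counts in INC females 85757, 85774, 85840, 85889 and 85899, against 1167, 664, 517 and 320 in TE females 85674, 85689, 85691 and 85694. In the HYPO of the same birds the counts were 2166, 860, 1929, 1211 and 1852 during incubation, against 1242, 898, 383 and 229 during territory establishment. In the HB they were 2591, 720, 1779, 1194 and 1916 during incubation, against 885, 674, 441 and 277 during territory establishment. Female 85694 was lowest and female 85774 was the lowest of incubation in all 3 regions, so the birds kept nearly 1 order throughout. The stages overlapped in each region.

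PCSK2 differed by 1.49 on average (standard error 0.27, adjusted p = 0.0194), with 1.51, 1.44 and 1.53 in the VmT, HYPO and HB. Its within-bird correlation of 0.92 was the highest of the 26, and over the bird means its unadjusted p was 0.00186 (adjusted p = 0.712). The related convertase PCSK1 (neuroendocrine convertase 1) differed by -0.01 (standard error 0.08) and its within-bird correlation was -0.06.

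A partial adenylate cyclase type 3-like transcript (ADCY3-like), named for an enzyme that makes cyclic AMP, had the largest difference of the 26. It was higher by 2.03 during incubation (standard error 0.43, adjusted p = 0.046). Over the regions the bird means were 72.0, 10.6, 98.2, 24.96 and 47.0 normalized counts in INC females, against 6.68, 6.92, 24.05 and 5.14 in TE females. INC female 85774 lay inside the range of the TE females. A second transcript named adenylate cyclase type 3 differed by 0.27 (standard error 0.34), at a mean of 11.03 normalized counts.

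CISH and BCL6 moved in opposite directions and most in the HYPO. CISH (cytokine-inducible SH2-containing protein) is induced by cytokine receptors of the prolactin and growth hormone family through STAT5 and damps their signal, and BCL6 is a transcriptional repressor. In the HYPO CISH had 346, 335, 285, 296 and 304 normalized counts in INC females, against 174, 158, 160 and 180 in TE females. BCL6 had 514, 486, 498, 569 and 466 there in INC females, against 1208, 1090, 965 and 816 in TE females. Neither gene overlapped between stages in the HYPO, and each overlapped in the VmT and the HB.

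Averaged over the regions CISH was higher by 0.54 (standard error 0.10, adjusted p = 0.0289) and BCL6 was lower by 0.59 (log2 difference -0.59, standard error 0.11, adjusted p = 0.0194). For CISH the regions gave 0.27 in the VmT, 0.89 in the HYPO and 0.45 in the HB, and for BCL6 -0.29, -0.996 and -0.47. BCL6 had the lowest interaction p of the 26 (unadjusted p = 0.00337, adjusted p = 0.051). SOCS2, another feedback inhibitor of cytokine receptors, differed by 0.36 with like sign (standard error 0.13, unadjusted p = 0.00812, adjusted p = 0.477), and its bird means did not overlap. CISH was the 1 called gene among 21 measured genes of sex steroid and prolactin signalling, whose median was 0.00.

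Corticoliberin (CRH), the hypothalamic peptide that drives the pituitary and adrenal stress response, was lower during incubation. Its HYPO counts were 67.6, 58.6, 112, 62.7 and 58.0 in INC females, against 115, 229, 150 and 153 in TE females. The CRH libraries of the stages overlapped in the VmT, the HB or both. It differed by -0.79 on average (standard error 0.15, adjusted p = 0.0289), with -0.52 in the VmT, -1.16 in the HYPO and -0.69 in the HB. The bird means were 73.0 to 102.1 in INC females, against 121.5 to 183.8 in TE females, and did not overlap. CRH was the 1 called gene among 81 candidate genes of aggression that the study named from earlier work.

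HSPA5 and HSP90B1, both chaperones of the endoplasmic reticulum, were lower during incubation. HSPA5 (78 kDa glucose-regulated protein) binds unfolded proteins in the lumen and holds the sensors of the unfolded protein response inactive, and HSP90B1 (endoplasmin) folds a set of secreted and membrane proteins there. In the VmT HSPA5 had 7552, 3749, 5039, 3670 and 4130 normalized counts in INC females, against 6136, 9302, 7067 and 9064 in TE females. In the HYPO it had 5526, 3886, 5361, 4504 and 4739 in INC females, against 5311, 10543, 6405 and 9673 in TE females. The HB values were 6113, 3582, 4456, 5033 and 4750 in INC females, against 5868, 8541, 6393 and 7750 in TE females. The overlap came from INC female 85757, the highest of incubation in all 3 regions, and TE female 85674, the lowest of territory establishment in all 3.

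HSPA5 differed by -0.67 (standard error 0.12, adjusted p = 0.0241) and HSP90B1 by -0.52 (standard error 0.11, adjusted p = 0.046). Without 1 female in turn the adjusted p ran from 0.00128 (without 85757) to 0.131 (without 85694) for HSPA5, and from 0.00149 (without 85757) to 0.217 (without 85694) for HSP90B1. Their within-bird correlations were 0.76 and 0.88, and over the bird means the unadjusted p was 0.00116 and 0.0046. Of 23 measured genes of the unfolded protein response, 2 were called lower during incubation and 0 higher. In all 3 regions 15 were lower and 1 was higher, against 14.7% and 15.3% of all transcripts tested. The median was -0.17, against 0.01 over all transcripts. An unadjusted p under 0.05 was found for 11 of the 23, all lower during incubation. Of all 19473 transcripts tested 585 were under 0.05 and lower during incubation, and 640 were under 0.05 and higher, together 6.29%.

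Among those not called, HERPUD1, a part of the machinery that removes misfolded proteins, differed by -0.67 (adjusted p = 0.195). MANF, a secreted protein of endoplasmic reticulum stress, differed by -0.39 (adjusted p = 0.157), SDF2L1 by -0.34 (adjusted p = 0.224) and CRELD2 by -0.48 (adjusted p = 0.376). Calreticulin (CALR) differed by -0.13 (adjusted p = 0.997) and the transcription factor ATF4 by 0.03 (adjusted p = 0.997). The list of temperature-responsive genes shares HSPA5 with it. Of 19 measured there, 13 were lower and 0 were higher in all 3 regions, against 14.7% and 15.3% of all transcripts tested. HSPA5 was the 1 called gene and the median was -0.15. An unadjusted p under 0.05 was found for 6 of the 19, with 5 lower and 1 higher during incubation. The higher one was RBM3, at 0.32 without like sign (limma unadjusted p = 0.0347, adjusted p = 0.735). In the same list DNAJB5 differed by -0.58 (adjusted p = 0.146) and HSP90AA1, a chaperone of the cytosol, by -0.30 (adjusted p = 0.343).

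PHKA2 and a transcript of EPM2A, which act on glycogen, were lower during incubation, and no list of glycogen genes was tested. Phosphorylase kinase, of which PHKA2 is a regulatory subunit, activates the enzyme that breaks glycogen down, and laforin (EPM2A) removes phosphate from glycogen. PHKA2 differed by -0.35 (standard error 0.07, adjusted p = 0.0289), with 510 to 724 normalized counts in the VmT of INC females, against 705 to 823 in TE females. The stages did not overlap in the HYPO or the HB. A laforin transcript differed by -0.96 (standard error 0.20, adjusted p = 0.046), and had 15.8, 45.1, 34.8, 32.2 and 40.9 in the HB of INC females, against 83.4, 94.8, 48.9 and 58.7 in TE females. Its stages overlapped in the VmT, the HYPO or both. A second laforin transcript with more counts (mean 212.8) differed by -0.49 with like sign (standard error 0.12, adjusted p = 0.145). The muscle form of the phosphorylase kinase alpha subunit differed by 0.07 (standard error 0.05).

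Among the transcripts called higher during incubation were versican, a collagen chain and ITIH4, grouped here after their values were seen. Versican (VCAN), a large proteoglycan of brain matrix, had 351, 376, 421, 414 and 435 normalized counts in the HYPO of INC females, against 159, 219, 228 and 385 in TE females. It differed by 0.66 (standard error 0.14, adjusted p = 0.0476), which put it just inside the threshold. The other versican transcripts differed by 0.32 (standard error 0.16) and 0.41 (standard error 0.25) and were not called. COL5A1, a chain of fibrillar collagen V, was higher by 0.75 (standard error 0.15, adjusted p = 0.046), with 47.4 to 98.1 in the HB of INC females, against 31.5 to 44.5 in TE females. ITIH4, a plasma protein of the family that binds hyaluronan, was higher by 0.82 (standard error 0.15, adjusted p = 0.026), with 42.6 to 69.2 in the HB of INC females, against 26.4 to 36.2 in TE females. For COL5A1 and for ITIH4 the stages overlapped in the VmT, the HYPO or both.

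Collagens are also made by the meninges, the membranes around the brain. Of 13 measured marker genes of meninges and pericytes 0 were called, 1 was higher and 6 were lower in all 3 regions, and the median was -0.07. Over all transcripts tested 15.3% were higher and 14.7% lower in all 3 regions. Their summed level was 3350 to 3882 in the VmT, 3438 to 4248 in the HYPO and 3768 to 4741 in the HB of INC females, against 2917 to 3524, 3703 to 5065 and 4334 to 4763 in TE females. The sums of the stages overlapped in all 3 regions. Of the 13 genes 2 had a mean under 1 normalized count. The part of these cells in the result was not tested.

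Nuclear proteins and RNA regulators fell on both sides. GCFC2, a factor linked to splicing, was lower during incubation with no overlap in any region: its counts were 187 to 267 in the VmT, 176 to 220 in the HYPO and 155 to 224 in the HB of INC females, against 322 to 344, 248 to 327 and 236 to 269 in TE females. It differed by -0.46 (standard error 0.08, adjusted p = 0.0194). UBN2, of the complex that deposits histone H3.3, differed by -0.34 (standard error 0.07, adjusted p = 0.046). Histone H2A.J (H2AFJ) was higher by 0.70 (standard error 0.14, adjusted p = 0.0427), and INC female 85899 was the highest in all 3 regions, at 862, 776 and 948. Another histone transcript, H2A type 2-C, had the other sign, at -0.51 (standard error 0.12, adjusted p = 0.0985). ZC3H12A, a ribonuclease that degrades cytokine messengers, was higher by 0.65 (standard error 0.14, adjusted p = 0.046). UHRF1BP1, which is not placed in this or another group, was higher by 0.26 (standard error 0.05, adjusted p = 0.046), the smallest difference of the 26.

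TCAF2, a regulator of the cold-sensing channel TRPM8, was another transcript with no overlap in any region, although the nearest HB libraries of the stages were both at 112. It had 37.0 to 121 normalized counts over the libraries of INC females, against 112 to 181 in TE females, and differed by -0.93 (standard error 0.16, adjusted p = 0.0194). IQCD was higher by 1.08 (standard error 0.21, adjusted p = 0.0289), and in the HB it had 14.7 to 24.9 in INC females, against 3.01 to 9.78 in TE females. The stages of IQCD overlapped in the VmT, the HYPO or both. An uncharacterized transcript, LOC101818430, was lower during incubation by 1.42 (log2 difference -1.42, standard error 0.21, adjusted p = 0.003). Its bird means were 23.4, 28.4, 20.5, 22.4 and 21.7 in INC females, against 54.2, 97.7, 98.9 and 31.4 in TE females 85674, 85689, 85691 and 85694. The INC females lay close together and the TE females did not, and the within-bird correlation was 0.85. Without TE female 85691 its adjusted p was 0.0518.

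**Figure D4:**
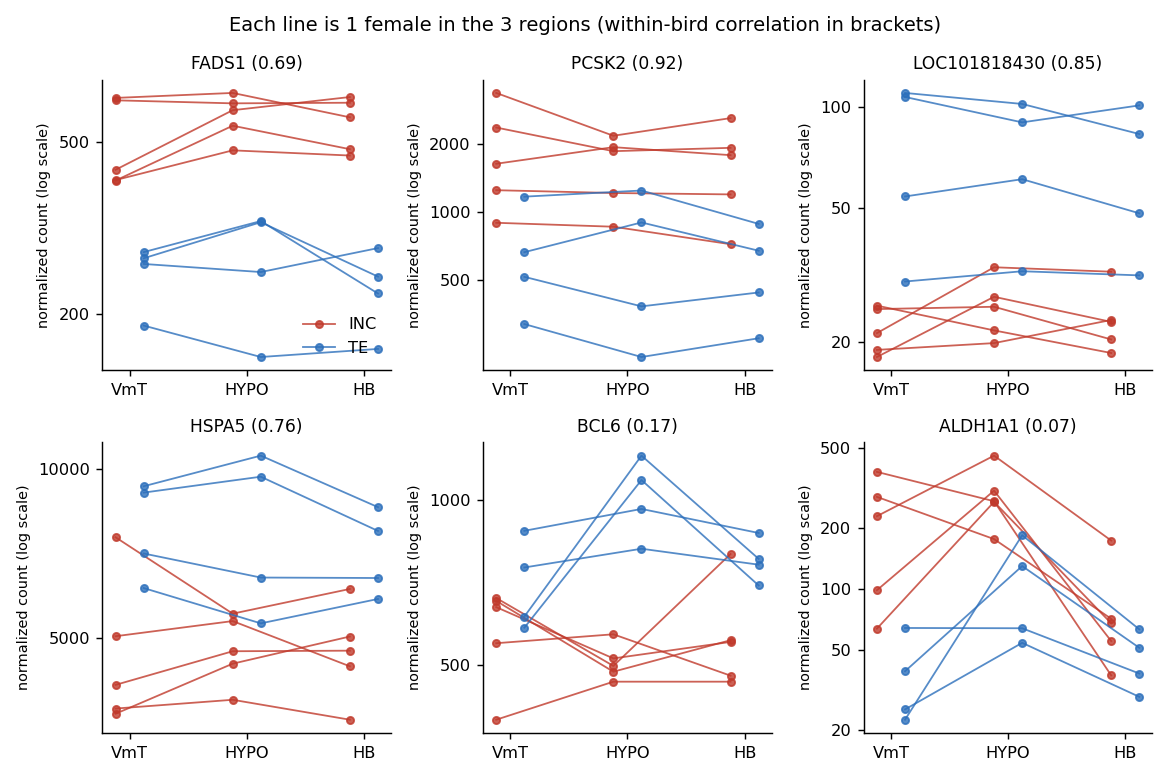
Normalized counts (vertical axis, log scale) of 6 of the 26 transcripts in the VmT, HYPO and HB, with 1 line for each female, INC in red and TE in blue, INC set slightly left. The within-bird correlation stands in brackets: the lines of PCSK2 (0.92) and LOC101818430 (0.85) run almost level and nearly keep their order, and those of BCL6 (0.17) and ALDH1A1 (0.07) cross.

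Seen over birds, the means of the 5 INC and the 4 TE females did not overlap in 19 of the 26 transcripts, against 1.68% of all transcripts tested. Library by library, INC and TE were fully separated for 11 of the 26 in the VmT (4.38% of all), 11 in the HYPO (5.56% of all) and 11 in the HB (1.45% of all). The exceptions over bird means were PCSK2, ADCY3-like, HSPA5, HSP90B1, VKORC1L1, UBN2 and ABCC6. A within-bird correlation above 0.7 was found for 9 of the 26, and 8 were below 0.3. The 26 were called with the same values that show this separation, so it describes them and does not test them again. Among the 26 the lowest unadjusted p over the bird means was that of FADS1 (3.8e-06), and next came ALDH1A1 (4.7e-05), BCL6 (5.3e-05) and CRH (8.3e-05), whose within-bird correlations were low except for FADS1.

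**Figure D5:**
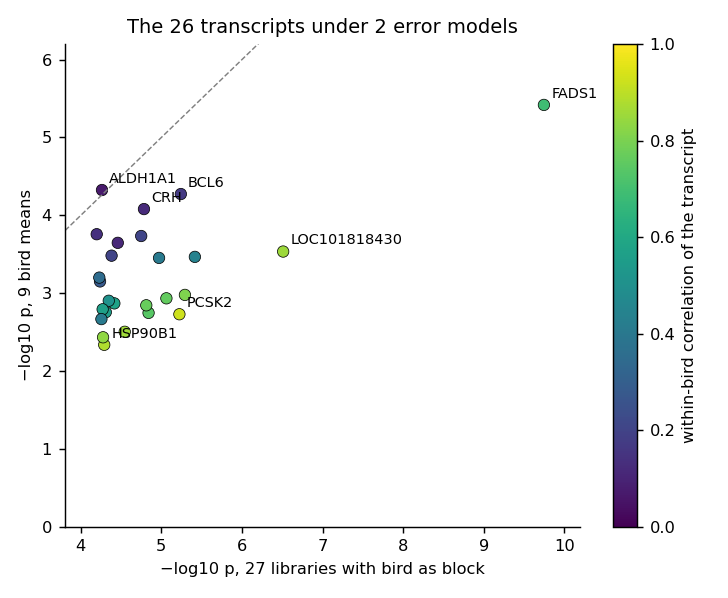
Unadjusted p of the 26 transcripts on a −log10 scale, from the 27 libraries with the bird as block (horizontal axis) and from the 9 bird means (vertical axis), coloured by within-bird correlation. The dashed line marks equal values: every transcript but ALDH1A1 lies below it, PCSK2 and LOC101818430 far below, and FADS1 has the smallest p on each axis.

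The regions differed in how many of the 26 were called in them alone. Tested alone in the same fit, 17 of the 26 were called in the VmT, where 3.41% of all transcripts were called (2.96% higher during incubation), 4 in the HYPO (0.272% of all) and 1 in the HB (0.00514% of all). The 4 of the HYPO were FADS1, BCL6, CRH and CISH. These counts use the values that chose the 26. Each region was adjusted over its own p values, so the counts do not measure what a region adds to the average. The other 6 (IQCD, H2AFJ, COL5A1, VKORC1L1, ABCC6 and EPM2A) were called in no region alone. Of 665 transcripts called in the VmT, 92 had like sign in the 3 regions (13.8%), and of 53 called in the HYPO, 6 had (11.3%). Both shares were below the 30.0% of like sign among all transcripts tested. A test of whether the stage difference differs between regions called 1267 transcripts (6.51% of all) and 0 of the 26, of which 3 (BCL6, CISH and ALDH1A1) had an unadjusted p under 0.05. A p above the threshold does not show that their differences were equal.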

How the data were processed

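RNA was sequenced as paired-end reads from stranded mRNA libraries. The authors trimmed the reads with Trimmomatic 0.36, mapped them to a tree swallow transcriptome with Bowtie2 2.3.4.1, kept proper pairs with SAMtools 1.3.1, counted pairs per transcript and removed transcripts with few reads. Assembly coordinates were not given in the sources used here. The study's methods name FPKM, but the deposited signal values behave as whole counts divided by 1 factor per library, with no division by length: 100% of low values lay within 0.1 of a whole multiple of 1 step per library. The labels name DESeq2 1.16.1 in R 3.4.1, and which step made the factor was not given in the sources used here. The recovered counts therefore rest on that step being 1 count. Gene symbols were assigned by hand from the names of the best protein matches in the deposited table.

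Values were tested as log2(value + 1) with limma 3.58.1 in R 4.3.3, over 19473 of 19478 transcripts, those that reached 1 in 4 or more libraries, with an intensity trend and Benjamini-Hochberg adjustment. The added 1 makes fold changes of low transcripts smaller. The bird number in the column name was the block (consensus correlation 0.20). The number pairs the samples, since the 3 regions come from 1 bird: same-bird deviations correlated at a median of 0.37 over transcripts, above 0.1 in 26 of 27 pairs. The exception was VmT with HYPO of TE female 85694 (-0.01). Alternatives also used edgeR 4.0.16 and DESeq2 1.42.0 on recovered reads, for which no block is available here. The within-bird correlation is the intraclass correlation of residuals over the 3 regions. The scripts were tested on simulated data.

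The members and the 29 gene lists (537 of 636 genes measured) were chosen with earlier results of these data known. Named were the called transcripts of like sign with the smallest p, up to 15 per direction, the genes of polyunsaturated fatty acid synthesis, and at most 3 genes of lowest p of other lists. VCAN, the last of 16 higher during incubation, transcripts that share a protein name, related enzymes, HERPUD1, SDF2L1, CRELD2, CALR, ATF4 and RBM3 were named after their values were seen. A list gene stands for its transcript with the highest mean count.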

Additional observations from a re-analysis of the deposited data

Results flagged for a closer look

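One value stood apart within its group. Over the 3 regions TE female 85674 had a geometric mean of 170.6 normalized counts of FADS1-like, and the other TE females had 264.5 to 277.9. That gap exceeds the critical value of Dixon's test at 95%. It was the lowest TE female in each region, at 188 in the VmT, 159 in the HYPO and 166 in the HB. Without this female the averaged difference of FADS1-like was 0.98 (standard error 0.10, limma adjusted p = 1.3e-05). The 26 transcripts gave 52 groups of bird means, and chance alone flags about 1 group in 20.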

How the results depend on the processing

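The averaged difference called 26 transcripts, all of like sign. With no replicate block it called 86, 83 of like sign, and with the mean over the regions per bird 0, where FADS1 kept its value of 1.14 and lost the call (adjusted p = 0.0745). That fit has 9 values per transcript. Averaged over HYPO and HB alone it called 14, over VmT and HB 1 and over VmT and HYPO 1, all of like sign in the 2 regions averaged. The sign in the region left out was not part of that count. The count was 8 when the mean had to reach 50, 3 with no trend, 13 with voom and a replicate block and 10 without the HB library high in prolactin (chosen after the data were seen), all of like sign. On recovered reads with no block, edgeR called 94 (91 of like sign) and DESeq2 237 (232 of like sign). Each of these 2 lists held all 26. Without 1 bird in turn the count and the count of like sign each ran from 1 to 28. The difference of the stage effect between regions was called in 1267, 789 with no replicate block and 773 when the mean had to reach 50, and from 607 to 1817 without 1 bird. FADS1 ran from 0.98 to 1.21 without 1 bird and kept its call in every alternative but the bird means. Of 750 values of the 26 under alternatives, 750 kept their direction and 404 their call. The cause of these changes was not tested.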

Other observations

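The gene groups of this paragraph held no called gene on the average of the 3 regions. Over all transcripts tested 15.3% were higher and 14.7% lower during incubation in all 3 regions, and 6.29% had an unadjusted p under 0.05. Of 20 measured immediate early genes, markers of recent neuronal activity, 7 were lower and 2 were higher during incubation in all 3 regions, 5 had an unadjusted p under 0.05 (all lower), and the median was -0.20. ARC, a synaptic protein of this group, differed by -0.43 (standard error 0.16, adjusted p = 0.567), and EGR3, a transcription factor, by -0.85 (standard error 0.33, adjusted p = 0.616). Of 20 clock genes 7 were lower and 2 higher in all 3 regions, and 3 had an unadjusted p under 0.05 (all lower). By the averaged difference 11 of the 20 were positive and 9 negative, with a median of 0.01. CRY1, a repressor of the clock, differed by -0.35 (standard error 0.10, adjusted p = 0.212). Oxidative phosphorylation had 0 of 42 genes at an unadjusted p under 0.05 and a median of -0.05.

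Among the candidate genes of aggression, SRD5A1, which reduces testosterone to dihydrotestosterone, differed by -0.59 (standard error 0.18, adjusted p = 0.324) and the vasotocin receptor AVPR1A by 0.40 (standard error 0.12, adjusted p = 0.35). Their bird means did not overlap between stages, in opposite directions. In the limma fit of the bird means the unadjusted p was 0.0047 for SRD5A1 and 6.5e-05 for AVPR1A, and that fit called no transcript. The within-bird correlations were 0.13 for SRD5A1 and -0.41 for AVPR1A. The mineralocorticoid receptor NR3C2 differed by 0.31 (standard error 0.10, adjusted p = 0.383), with 0.28, 0.31 and 0.34 in the VmT, HYPO and HB. Prolactin differed by 1.82 (standard error 1.21, adjusted p = 0.928), with 1.74 in the VmT, 1.70 in the HYPO and 2.03 in the HB, at 0 to 195 normalized counts in all libraries but the HB library of INC female 85889.

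The transcript just outside the threshold was that of tyrosine-protein kinase Srms, with 0.79 (limma adjusted p = 0.0567). Of the thalamus and midbrain markers 17 of 24 were higher during incubation in all 3 regions, against 15.3% of all transcripts tested. GATA3, one of them, differed by 1.83 in the VmT, 0.34 in the HYPO and 0.66 in the HB (average 0.94, standard error 0.28, adjusted p = 0.305). In the limma fit of the bird means its unadjusted p was 6.9e-05, and its within-bird correlation was -0.24.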
